A study of Mus musculus with 8 samples.

Results

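The unfolded protein response (UPR) and ATF4 genes are 42 genes chosen by symbol from 18533 gene symbols counted in PDGF-BB–treated mouse aortic smooth muscle cells (MASMCs). They were taken from a written list of ER chaperones, ER-associated degradation (ERAD) genes, UPR sensors, and ATF4 targets, by name and role, with no threshold on a measured value. Earlier results of these data were known when the genes were chosen. The list holds 21 ER folding and ERAD genes, 4 genes for the sensors and *Xbp1*, and 17 genes of the ATF4 arm. A row was found for all 42, with *Selk* under its current symbol *Selenok*. Of the 42, 41 passed the filter on low counts and were tested. *Derl3*, a derlin of the ERAD channel, did not, with 0 to 6 counts per sample.

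Proteins that enter the ER are folded by chaperones and oxidized by disulfide isomerases, and misfolded ones are sent back to the cytosol for degradation (ERAD). When unfolded protein builds up, 3 sensors in the ER membrane respond. IRE1 (*Ern1*) splices *Xbp1* mRNA, and ATF6 is cleaved to a free transcription factor. Both then raise chaperone and ERAD genes. PERK (*Eif2ak3*) phosphorylates the translation factor eIF2, which lowers protein synthesis but favors translation of *Atf4* mRNA. ATF4 is also reached without ER stress, for example when amino acids run short, and raises genes for amino acid synthesis and uptake. Smooth muscle cells that leave the contractile state make and secrete much matrix protein and rely on this machinery.

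The study compared 4 samples of WT MASMCs with 4 samples of *Hint1*-/- MASMCs to find which genes differ with the *Hint1* genotype. Every sample had been exposed to PDGF-BB, a growth factor that drives smooth muscle cells out of the contractile state, at 20 ng/mL for 24 hours. The methods describe cultures from aortas of male mice aged 4 to 6 weeks and a *Hint1* deletion present in the whole animal, not driven by a Cre, and no sample without PDGF-BB was analysed here. They do not say whether the replicates came from separate mice or cultures, so p-values measure only the spread between these samples, which may be technical.

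The libraries held 20778077 to 20888041 estimated counts each, and normalization factors (edgeR's TMM) lay between 0.993 and 1.01. *Hint1* itself had 2272, 2336, 2364, and 2301 counts in WT replicates 1 to 4 and 713, 748, 778, and 715 in *Hint1*-/- replicates 1 to 4. That is 32.1% of the WT level (log2 fold change -1.64, edgeR adjusted p = 6.8e-16), so *Hint1* RNA was reduced in every *Hint1*-/- library but not absent, and a count per gene does not show which exons the remaining reads cover. Counts below follow this order of replicates. Smooth muscle markers were present, with *Acta2* at 826 ± 44.6 CPM (counts scaled for library size) in WT against 578 ± 15.6 CPM in the knockout (SD, n = 4 each). Macrophage genes were abundant too, with *Lyz2* at 1202 ± 88.0 and 966 ± 29.0 CPM (SD, n = 4 each).

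Markers of other cell types moved with genotype. Here a marker counts as higher or lower in *Hint1*-/- samples at an edgeR adjusted p below 0.05. By this rule, 11.2% of all 13535 tested genes were higher and 10.2% lower. The 6 macrophage markers summed to between 43205 and 49687 counts in WT and between 35235 and 37593 in *Hint1*-/- samples, and 5 of them were lower. The 6 Schwann cell markers summed to between 862 and 995 against between 189 and 241 counts, with 5 lower. Of 7 tested smooth muscle markers, 5 were lower and 1 was higher. Of 6 fibroblast markers, 3 were higher and 1 was lower, with sums of 113652 to 125553 counts in WT and 125379 to 133130 in *Hint1*-/- samples. The largest part of these sums was *Col1a1*, the lower marker (log2 fold change -0.17), while *Dcn* (0.83), *Lum* (0.88), and *Pdgfra* (0.33) were higher. The 6 cardiac markers summed to 27 to 45 against 96 to 173 counts, and all 3 that were tested were higher. *Myh6* had 4 counts over all WT libraries and 202 over all *Hint1*-/- libraries, and *Myl7* was at 0 in all 4 WT libraries. The 6 endothelial markers summed to at most 133 counts in any sample, and the 3 plasma cell markers to at most 6. The part of these shifts in the results was not tested, and in bulk RNA fewer cells of a type and less RNA per cell cannot be told apart.

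The members differed in opposite directions by arm. Of the 41 tested members, 27 (65.9%) were called, meaning that edgeR's quasi-likelihood test gave them an adjusted p below 0.05, where 21.5% of all 13535 tested genes did. Of these, 17 were higher and 10 lower in *Hint1*-/- MASMCs, where 11.2% of all genes were higher and 10.2% lower. The ER folding and ERAD genes had a median log2 fold change of 0.120, with 14 of 20 tested genes higher and 1 lower. The ATF4 genes had a median of -0.086, with 9 of 17 lower and 1 higher. The median over all tested genes was 0.000 on this scale. Every difference was small: log2 fold changes ran from -0.24 to 0.30, and none of the members passed the study's limit of a 1.5-fold change, which 2.83% of all genes did. In 17 members the lowest *Hint1*-/- CPM exceeded the highest WT CPM and in 9 the reverse held, where 23.0% of all tested genes did not overlap. Each of these reached a two-sided exact permutation p of 0.0286, the smallest that 4 against 4 samples allow.

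Within each sample, the middle member of an arm moved with the genotype. For each gene, log2 CPM was taken relative to its WT mean, and the median over an arm was 0.012, 0.027, -0.017, and -0.016 in WT replicates and 0.134, 0.117, 0.108, and 0.100 in *Hint1*-/- replicates for the ER folding and ERAD genes. For the ATF4 genes it was -0.025, -0.010, 0.034, and 0.009 in WT and -0.092, -0.092, -0.088, and -0.190 in *Hint1*-/- replicates. The genotypes did not overlap in either arm, and *Hint1*-/- replicate 4 was the lowest for the ATF4 genes. That replicate held the lowest *Hint1*-/- value for 11 of the 17 ATF4 genes. Together the ER folding and ERAD genes took 0.824% to 0.853% of all counts in WT and 0.889% to 0.902% in *Hint1*-/- samples. The ATF4 genes took 0.253% to 0.264% and 0.232% to 0.248%.

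**Figure D1:**
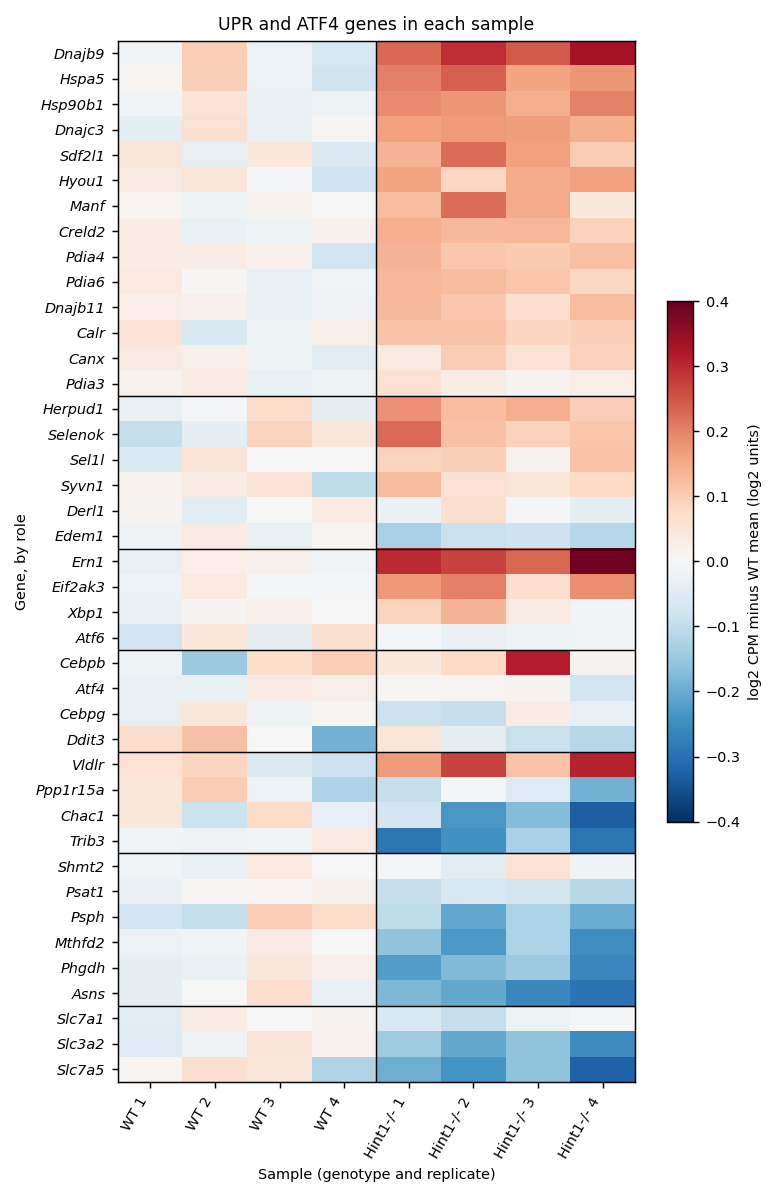
Each row is 1 of the 41 tested genes, grouped by role, and each column is 1 sample. Color gives log2 CPM minus the WT mean of that gene in log2 units, red above and blue below. Most of the 14 chaperone rows at the top are light red in the 4 *Hint1*-/- columns, with *Dnajb9* stronger and *Canx* and *Pdia3* paler. The rows for *Trib3*, *Asns*, *Phgdh*, and *Slc7a5* are blue there.

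RefSeq's mouse promoters (GRCm38.p6, the same assembly as mm10, 250 bases before to 50 after each transcription start) were found for 37 of the 42 members and not for *Manf*, *Hyou1*, *Derl1*, *Atf6*, and *Slc7a5*. They were searched on both strands for exact matches to 4 motifs. The ER stress response element (ERSE), bound by ATF6 together with NF-Y, was searched as CCAAT and CCACG with 9 bases between. ERSE-II was searched as ATTGG and CCACG with 1 base between, the XBP1 motif UPRE as TGACGTGG, and the C/EBP-ATF element bound by ATF4 as TGATGNAA. No matches overlapped each other in a member's promoter.

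ERSE was in the promoters of 9 of 18 ER folding and ERAD genes, which is 50%, against 0.119% of all 32851 promoters. ERSE-II was in 2 more, *Herpud1* and *Dnajb11*, against 0.0365% of all promoters. Of these 11 genes, 8 were higher, *Canx* and *Syvn1* were not called, and *Derl3* was not tested. Of the 7 with neither motif, 4 were higher and 1 was lower. Among all tested genes, 11.2% were higher and 10.2% lower. The C/EBP-ATF motif was in the promoters of 4 of 16 ATF4 genes, *Asns*, *Trib3*, *Chac1*, and *Vldlr*, of which 3 were lower and *Vldlr* was higher. It was also in the promoter of 1 ER gene, *Herpud1*, which was higher. It was in 21.1% of the 19 ATF4 gene promoters, 5.56% of the 18 ER gene promoters, and 3.97% of all promoters. Of the ATF4 genes with a promoter but no match to it, *Phgdh*, *Psat1*, *Psph*, *Mthfd2*, and *Slc3a2* were lower and the rest were not called. UPRE was in no member's promoter and in 0.676% of all promoters. A match says only that these letters lie in the window, and ERSE was itself defined in chaperone promoters such as that of *Hspa5*.

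The stretches that follow are from the called members with a match, taken in order of adjusted p, and are shown so that both elements can be read in place. Capitals mark the matched motif, and each runs 5′ to 3′ along the gene's strand in GRCm38.p6. The *Hspa5* stretch lies at chr2:34771985-34772083 on the plus strand. That of *Hsp90b1*, with 1 ERSE on each strand, lies at chr10:86705493-86705694 on the minus strand. The *Dnajc3* stretch is at chr14:118937787-118937885 on the plus strand. All 3 end upstream of the transcription start.
Hspa5: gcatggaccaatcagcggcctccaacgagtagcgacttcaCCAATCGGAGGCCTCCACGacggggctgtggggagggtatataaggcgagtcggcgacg
Hsp90b1: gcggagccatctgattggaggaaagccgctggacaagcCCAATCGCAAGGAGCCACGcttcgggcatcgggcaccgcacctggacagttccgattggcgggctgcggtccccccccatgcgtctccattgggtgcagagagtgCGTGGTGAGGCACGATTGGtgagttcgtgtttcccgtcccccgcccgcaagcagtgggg
Dnajc3: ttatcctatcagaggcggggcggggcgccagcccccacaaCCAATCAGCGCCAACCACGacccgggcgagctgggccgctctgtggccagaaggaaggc

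The C/EBP-ATF motif is in capitals in the next group. The *Asns* stretch lies at chr6:7693210-7693272 on the minus strand, directly before the start. For *Trib3* it is at chr2:152344028-152344057 on the minus strand, just inside the transcript and on the opposite strand. For *Vldlr* it is at chr19:27216780-27216867 on the plus strand, upstream of the second of its 2 listed starts and on the opposite strand.
Asns: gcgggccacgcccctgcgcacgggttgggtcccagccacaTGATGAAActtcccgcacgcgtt
Trib3: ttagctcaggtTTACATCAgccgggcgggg
Vldlr: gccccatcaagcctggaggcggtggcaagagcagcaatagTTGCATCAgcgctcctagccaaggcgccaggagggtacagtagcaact

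Of the 14 ER chaperones and folding enzymes, 12 were higher in *Hint1*-/- MASMCs, none was lower, and the other 2 were not called. Of all 13535 tested genes, 11.2% were higher and 10.2% lower. *Dnajb9*, a DNAJ co-chaperone that delivers misfolded proteins to the master chaperone, changed most. It had 1282, 1393, 1276, and 1238 counts in WT and 1508, 1576, 1528, and 1621 in *Hint1*-/- samples. It was 21.1% higher (log2 fold change 0.28, SE 0.040, edgeR adjusted p = 5.3e-05), and no sample of the genotypes overlapped. *Hspa5*, which encodes that chaperone (BiP) and carries the ERSE shown above, had 23007, 24608, 22559, and 21687 counts in WT and 26150, 26780, 25470, and 25750 in *Hint1*-/- samples. The gain was 14.3% (log2 fold change 0.19, SE 0.037, edgeR adjusted p = 0.000863). Its estimated counts are not whole in any file. *Hsp90b1*, the ER form of HSP90, had 25960, 27351, 25781, and 25846 against 29638, 29365, 28848, and 29860 counts, with WT replicate 2 the highest of its group as for *Hspa5*. This gave 13% more (log2 fold change 0.18, edgeR adjusted p = 0.000414). *Hyou1*, which exchanges the nucleotide on BiP, had 6078, 6177, 5921, and 5619 against 6581, 6230, 6553, and 6617 counts (log2 fold change 0.14, edgeR adjusted p = 0.00774).

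Other BiP partners rose as well. *Dnajc3*, a co-chaperone that also inhibits eIF2 kinases, had 3461, 3734, 3501, and 3567 counts in WT and 3962, 3969, 3982, and 3904 in *Hint1*-/- samples (log2 fold change 0.16, SE 0.032, edgeR adjusted p = 0.00125). The 4 *Hint1*-/- values lay close together and all above WT. *Dnajb11*, a DNAJ protein that binds nascent chains, had 3230, 3226, 3116, and 3143 against 3452, 3387, 3310, and 3440 counts (log2 fold change 0.11, edgeR adjusted p = 0.02). *Sdf2l1*, a partner of *Dnajb11*, had 994, 945, 992, and 923 against 1049, 1113, 1073, and 1026 counts (log2 fold change 0.16, edgeR adjusted p = 0.00924). Neither gene overlapped between the genotypes. *Manf*, an ER-resident factor secreted under stress, had 3849, 3802, 3878, and 3837 against 4146, 4443, 4249, and 3929 counts, with *Hint1*-/- replicate 4 nearest to WT (log2 fold change 0.14, edgeR adjusted p = 0.011). *Creld2*, an ER stress–induced ER protein, had 1503, 1450, 1456, and 1492 against 1618, 1597, 1608, and 1561 counts (log2 fold change 0.12, edgeR adjusted p = 0.0115). The edgeR adjusted p of *Dnajb11* rose to 0.0747 without WT replicate 3, 0.0611 without *Hint1*-/- replicate 1, and 0.0502 without *Hint1*-/- replicate 4, and that of *Manf* to 0.0537 without *Hint1*-/- replicate 2.

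Of the 5 disulfide isomerases and lectin chaperones among the members, 3 were higher, against 11.2% of all tested genes. *Calr*, the soluble lectin chaperone calreticulin, had 34844, 32413, 33302, and 34127 counts in WT and 36092, 36091, 35558, and 35748 in *Hint1*-/- samples (log2 fold change 0.10, SE 0.032, edgeR adjusted p = 0.0294). *Pdia4* had 5443, 5482, 5416, and 5062 against 5826, 5709, 5716, and 5758 counts (log2 fold change 0.12, edgeR adjusted p = 0.0157), with WT replicate 4 below the rest of its group. *Pdia6* had 10382, 10195, 9891, and 10026 against 11013, 10930, 10886, and 10657 counts (log2 fold change 0.11, edgeR adjusted p = 0.0116). Both encode disulfide isomerases, and neither overlapped between the genotypes. The membrane lectin chaperone *Canx* (12830 to 14074 counts, log2 fold change 0.07, edgeR adjusted p = 0.119) and the isomerase *Pdia3* (25243 to 26592 counts, log2 fold change 0.03, edgeR adjusted p = 0.496) were not called. The call for *Calr* was lost with upper-quartile factors (edgeR adjusted p = 0.0516) and without WT replicate 2 (0.0715), WT replicate 3 (0.0922), *Hint1*-/- replicate 1 (0.0729), or *Hint1*-/- replicate 2 (0.0797). It was lost for *Pdia4* without WT replicate 4 (0.0528) and for *Pdia6* without WT replicate 3 (0.0553).

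Among the 6 tested ERAD genes, 2 were higher, 1 was lower, and the other 3 were not called. The shares of all tested genes were 11.2% higher and 10.2% lower, and 6 genes are few. *Herpud1*, a membrane scaffold of the ERAD complex, had 1652, 1685, 1776, and 1642 counts in WT and 1901, 1821, 1857, and 1795 in *Hint1*-/- samples (log2 fold change 0.14, SE 0.036, edgeR adjusted p = 0.00933). *Selenok*, an ER membrane selenoprotein, had 1092, 1144, 1245, and 1204 against 1359, 1257, 1241, and 1256 counts (log2 fold change 0.14, edgeR adjusted p = 0.0323). Its groups were apart in CPM, while in raw counts WT replicate 3 exceeded *Hint1*-/- replicate 3. *Edem1*, which pulls misfolded glycoproteins out of the folding cycle, went the other way, with 4477, 4655, 4441, and 4551 counts in WT and 4104, 4218, 4254, and 4156 in *Hint1*-/- samples (log2 fold change -0.10, SE 0.031, edgeR adjusted p = 0.0202). All 4 *Hint1*-/- samples lay below all WT samples. The ubiquitin ligase gene *Syvn1* (1938 to 2256 counts, log2 fold change 0.08, edgeR adjusted p = 0.163) and its partner *Sel1l* (3553 to 3990 counts, 0.08, edgeR adjusted p = 0.117) were not called. *Derl1* had 3268 to 3487 counts and was 99.9% of WT (edgeR adjusted p = 0.992). The call for *Edem1* was lost without *Hint1*-/- replicate 1 (edgeR adjusted p = 0.0668). That for *Selenok* was lost under DESeq2 (0.0622) and, in edgeR, without WT replicate 1 (0.115), WT replicate 2 (0.0685), *Hint1*-/- replicate 1 (0.118), or *Hint1*-/- replicate 2 (0.0532).

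**Figure D2:**
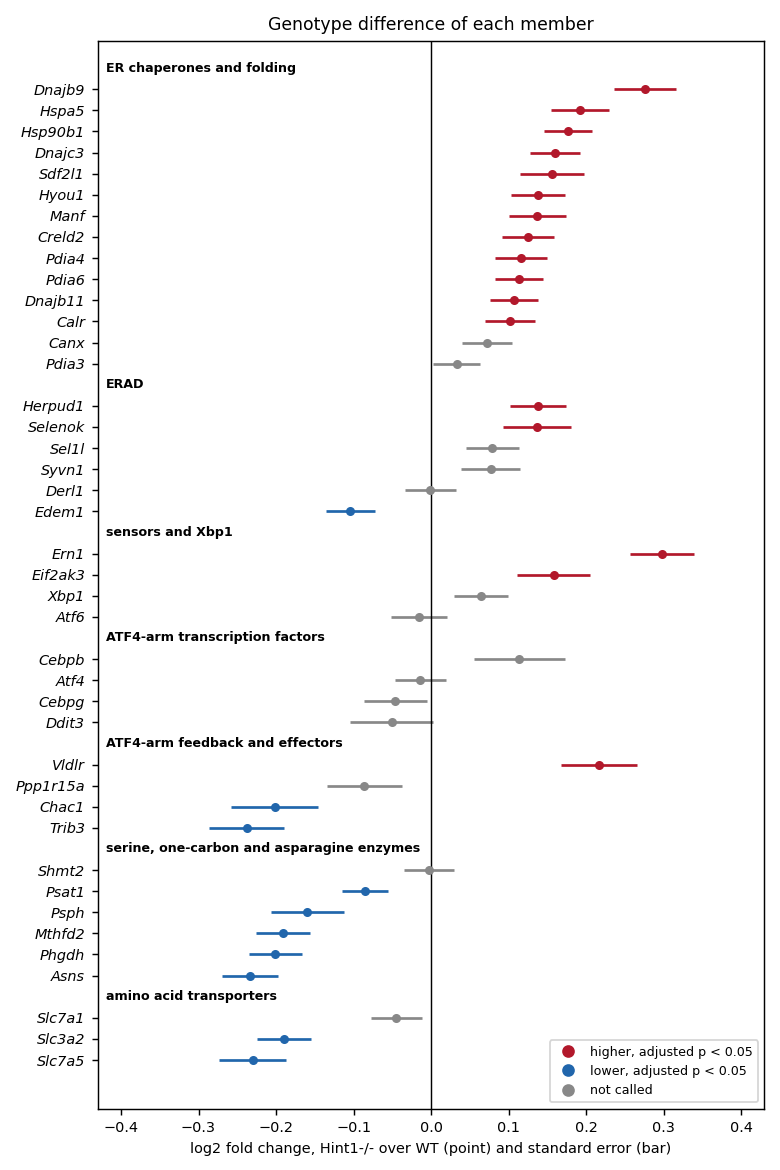
Points give the log2 fold change of *Hint1*-/- over WT for each of the 41 tested genes, with bars of 1 standard error, grouped by role. Red and blue mark genes that were higher (17) or lower (10) at an edgeR adjusted p under 0.05, and gray marks the 14 that were not called.

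Of the 3 sensors, the genes of 2 were higher, where 11.2% of all tested genes were. *Ern1*, which encodes IRE1 and lies on chromosome 11 from 106394650 to 106487852 in mm10, had the largest change of all members. It had 824, 864, 855, and 836 counts in WT and 1031, 1008, 986, and 1098 in *Hint1*-/- samples, a gain of 23% (log2 fold change 0.30, SE 0.041, edgeR adjusted p = 2.9e-05). The WT values lay close together and the lowest *Hint1*-/- value was well above them. *Eif2ak3*, the PERK gene, had 542, 570, 551, and 549 against 618, 629, 577, and 625 counts (log2 fold change 0.16, SE 0.047, edgeR adjusted p = 0.0217). *Hint1*-/- replicate 3 was only just above the highest WT sample. *Atf6* had 1979 to 2190 counts (log2 fold change -0.02, edgeR adjusted p = 0.807) and was not called. *Xbp1*, the mRNA that IRE1 splices, had 3034, 3141, 3154, and 3095 counts in WT and 3275, 3378, 3170, and 3061 in *Hint1*-/- samples (log2 fold change 0.06, edgeR adjusted p = 0.222). The groups overlapped, and a count per gene does not separate spliced from unspliced *Xbp1*. The call for *Eif2ak3* was lost under DESeq2 (adjusted p = 0.0774) and, in edgeR, without WT replicate 1 (0.0568), WT replicate 3 (0.0565), *Hint1*-/- replicate 1 (0.0540), *Hint1*-/- replicate 2 (0.0674), or *Hint1*-/- replicate 4 (0.0571).

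None of the 4 transcription factor genes of the ATF4 arm was called, where 21.5% of all tested genes were. *Atf4* had 6872, 6931, 7195, and 7129 counts in WT and 6992, 7002, 7041, and 6616 in *Hint1*-/- samples, which is 99.1% of WT (log2 fold change -0.01, SE 0.033, edgeR adjusted p = 0.823). ATF4 is governed largely by translation, which these counts do not measure. *Ddit3*, which encodes the stress-induced factor CHOP, had 1626, 1688, 1554, and 1357 counts in WT and 1592, 1495, 1452, and 1423 in *Hint1*-/- samples. Its groups overlapped, WT replicate 4 being the lowest of all 8 samples (log2 fold change -0.05, SE 0.054, edgeR adjusted p = 0.559). *Cebpb* ranged from 3048 to 4162 counts (log2 fold change 0.11, edgeR adjusted p = 0.189) and *Cebpg* from 804 to 898 (log2 fold change -0.05, edgeR adjusted p = 0.48). Both encode C/EBP factors that pair with ATF4. With trends over exon length and base composition removed from every library, *Cebpb* was called higher (log2 fold change 0.183, edgeR adjusted p = 0.00258).

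Of the 6 serine, one-carbon, and asparagine enzymes, 5 were lower, where 10.2% of all tested genes were. *Asns*, which makes asparagine and holds the C/EBP-ATF element shown above, had 4070, 4200, 4395, and 4102 counts in WT and 3668, 3601, 3486, and 3387 in *Hint1*-/- samples. It was 85% of WT (log2 fold change -0.23, SE 0.036, edgeR adjusted p = 8.6e-05), with no overlap. *Phgdh*, which takes the first step from glycolysis to serine, had 5311, 5383, 5620, and 5535 against 4639, 4778, 4912, and 4530 counts (87% of WT, log2 fold change -0.20, SE 0.034, edgeR adjusted p = 0.000256). *Psat1* and *Psph* take the next steps of the serine route. *Psat1* had 6063, 6234, 6218, and 6249 against 5760, 5858, 5856, and 5691 counts (log2 fold change -0.09, edgeR adjusted p = 0.0491) and *Psph* had 1049, 1043, 1188, and 1166 against 1025, 950, 1012, and 961 (log2 fold change -0.16, edgeR adjusted p = 0.02). The groups stood apart for each, narrowly for *Psph*. *Mthfd2*, an enzyme of the mitochondrial folate cycle, had 2156, 2192, 2253, and 2196 against 1952, 1857, 2002, and 1838 counts (log2 fold change -0.19, SE 0.035, edgeR adjusted p = 0.000622). *Shmt2*, which passes a carbon unit from serine to that cycle, had 5590 to 6038 counts and was 99.8% of WT (edgeR adjusted p = 0.967). *Psat1* lost its call without any 1 of the 8 samples (edgeR adjusted p = 0.0557 to 0.118) and with no filter on low counts (0.0766). *Psph* lost it without WT replicate 3 (0.0890), WT replicate 4 (0.0648), *Hint1*-/- replicate 2 (0.0686), or *Hint1*-/- replicate 4 (0.0616).

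Of the 3 amino acid transporter genes, 2 were lower, where 10.2% of all tested genes were. *Slc7a5*, the light chain of the LAT1 exchanger for large neutral amino acids, had 2901, 3034, 2992, and 2659 counts in WT and 2507, 2428, 2574, and 2294 in *Hint1*-/- samples (85.3% of WT, log2 fold change -0.23, SE 0.043, edgeR adjusted p = 0.00069). *Slc3a2*, the heavy chain that carries it to the membrane, had 5594, 5780, 6027, and 5869 against 5231, 4998, 5179, and 4839 counts (87.7% of WT, log2 fold change -0.19, SE 0.035, edgeR adjusted p = 0.000542). In both genes *Hint1*-/- replicate 4 was the lowest sample and the genotypes did not overlap. The cationic amino acid transporter *Slc7a1* had 3108 to 3433 counts (log2 fold change -0.05, edgeR adjusted p = 0.365) and was not called. Counts of all 3 genes are not whole in any file.

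The feedback and effector genes of the ATF4 arm were split. *Trib3*, a pseudokinase that ATF4 and CHOP induce and that restrains them, had 650, 653, 653, and 673 counts in WT and 532, 550, 597, and 533 in *Hint1*-/- samples (84.8% of WT, log2 fold change -0.24, SE 0.048, edgeR adjusted p = 0.00136). *Chac1*, which degrades glutathione, had 661, 607, 676, and 627 against 604, 541, 566, and 507 counts (log2 fold change -0.20, SE 0.056, edgeR adjusted p = 0.0146). The *Chac1* groups nearly met, with WT replicate 2 at 607 and *Hint1*-/- replicate 1 at 604 counts, and in CPM they overlapped (two-sided exact permutation test, p = 0.0571). *Vldlr*, a lipoprotein receptor induced through PERK and ATF4, was the 1 higher gene of the arm, with 1045, 1071, 967, and 945 against 1123, 1200, 1082, and 1238 counts, a gain of 16.2% (log2 fold change 0.22, SE 0.049, edgeR adjusted p = 0.00352). *Ppp1r15a*, the phosphatase subunit GADD34 that reverses eIF2 phosphorylation, had 1363 to 1688 counts (log2 fold change -0.09, edgeR adjusted p = 0.223) and was not called. *Chac1* lost its call without WT replicate 3 (edgeR adjusted p = 0.0621) or *Hint1*-/- replicate 4 (0.0580).

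**Figure D3:**
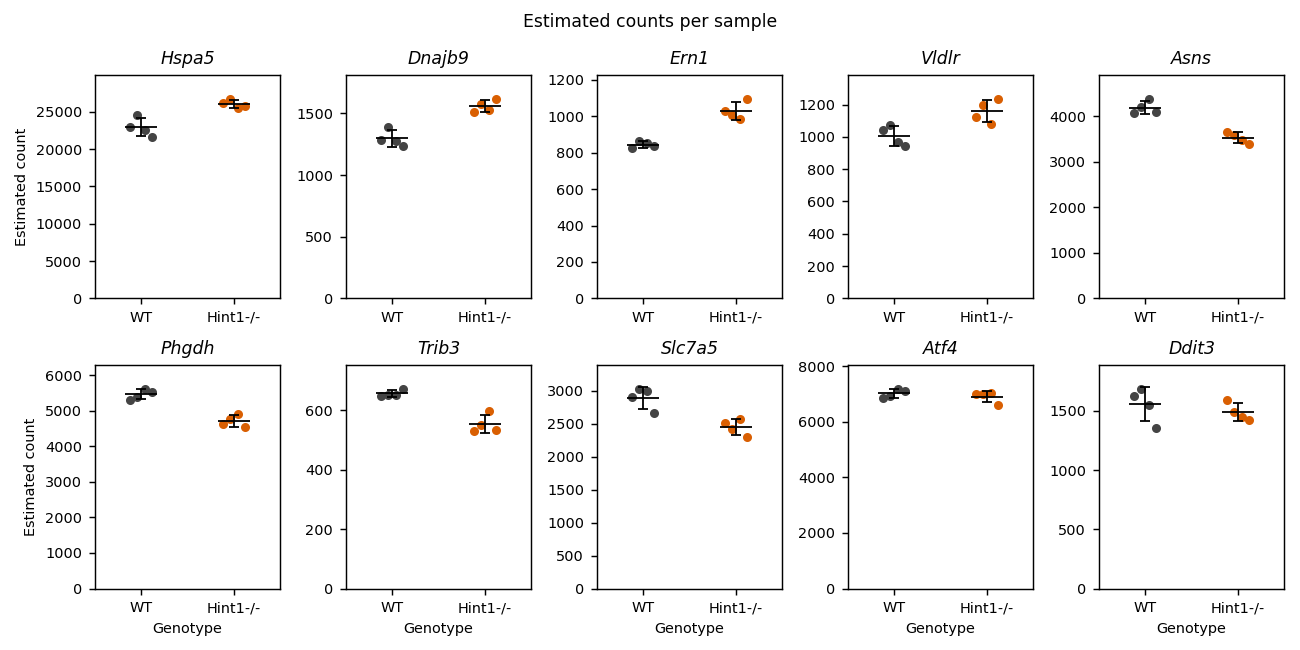
Each point is the estimated count of 1 sample (4 WT, dark gray, and 4 *Hint1*-/-, orange), and lines give the mean ± SD of each genotype, on axes that start at 0. *Hspa5*, *Dnajb9*, *Ern1*, and *Vldlr* are higher and *Asns*, *Phgdh*, *Trib3*, and *Slc7a5* lower in every *Hint1*-/- sample, while the points of *Atf4* and *Ddit3* overlap.

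On a scale that allows genes to be compared, CPM per kilobase of merged exons, the most abundant members in WT were *Calr* at 559, *Pdia3* at 392, *Hsp90b1* at 311, and *Hspa5* at 260. *Atf4* followed at 143. The least abundant of the 40 ranked genes were *Cebpg* at 7.37, *Ern1* at 4.94, *Vldlr* at 4.78, and *Eif2ak3* at 4.39. Of the 4 most abundant, *Calr*, *Hsp90b1*, and *Hspa5* were higher and *Pdia3* was not called, and the scarce sensors *Ern1* and *Eif2ak3* were higher. Merged exons can be longer than any 1 transcript, so genes with many isoforms may read low on this scale. *Ddit3* has overlapping entries in the annotation and was not ranked. *Derl3*, with 0 to 6 counts per sample, was not ranked either.

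Other genes of the same pathways were counted in the same fit. Their lists were chosen by name, but with earlier results of these data known, so they are not independent of these data. Of 58 further ER genes (translocon, signal peptidase, glycosylation, oxidation, and ER export), 16 were higher and none was lower, which is 27.6% called against 21.5% of all genes, with a median log2 fold change of 0.033. *Ero1a*, the oxidase that recharges disulfide isomerases, rose most (log2 fold change 0.51, SE 0.045, edgeR adjusted p = 1.3e-07), from 4325, 4800, 4558, and 4574 to 6273, 6858, 5890, and 6766 counts. It was followed by *Txndc11* (0.20, edgeR adjusted p = 0.00103), *Kdelr3*, a receptor that returns escaped ER proteins (0.19, 0.000498), *Edem3* (0.18, 0.00571), and *Spcs3*, a signal peptidase subunit (0.18, 0.000246). *Edem3* and *Edem1* encode related ERAD proteins and moved in opposite directions. The list's count fell to 9 of 58 without WT replicate 3, where 2306 of all 13619 tested genes were called. With upper-quartile factors it was 12 of 58, where 2885 of all 13535 were. In these settings the list's share was not above that of all genes.

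Of 34 tested further ATF4 genes, 14 were lower and 2 higher. That is 47.1% called against 21.5% of all genes, with a median log2 fold change of -0.108. *Slc7a11*, the cystine importer, fell most, from 3115, 3711, 3424, and 3692 counts in WT to 2540, 2756, 2575, and 2771 in *Hint1*-/- samples (log2 fold change -0.38, SE 0.048, edgeR adjusted p = 1.2e-05). The stress factor *Atf3* (-0.35, edgeR adjusted p = 0.00022), the glycine transporter *Slc6a9* (-0.30, 6e-05), and the autophagy receptor *Sqstm1* (-0.24, 2.1e-05) were also lower. *Mthfd1l*, another enzyme of the mitochondrial folate cycle, was higher (0.25, edgeR adjusted p = 8.4e-05), opposite to *Mthfd2*. Several of these genes also answer to other factors, *Slc7a11* and *Sqstm1* to NRF2 among them.

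Few genes that set eIF2 activity were called outside the members. Among the members, the kinase gene *Eif2ak3* and the kinase inhibitor gene *Dnajc3* were higher, and *Ppp1r15a* was not called. Of 14 further kinases, eIF2 and eIF2B subunits, and regulators, 1 was called (7.14%, against 21.5% of all genes). It was *Eif2s1*, the phosphorylated subunit of eIF2 (log2 fold change -0.10, edgeR adjusted p = 0.0237). That call was lost without WT replicate 2 (0.0574), WT replicate 3 (0.0527), *Hint1*-/- replicate 1 (0.0657), or *Hint1*-/- replicate 2 (0.0549), each an edgeR adjusted p. Of 9 genes linked to death under ER stress, 5 were lower and 1 was higher (66.7% called, against 21.5% of all genes). The lower genes with the largest changes were the BH3-only genes *Bcl2l11* (-0.41, edgeR adjusted p = 0.000128), *Pmaip1* (-0.29, 0.00428), and *Bbc3* (-0.22, 0.0152), and the pore protein gene *Bax* (-0.14, 0.0113). *Tnfrsf10b*, a death receptor, was higher (0.18, edgeR adjusted p = 0.00306). *Pmaip1*, *Bbc3*, *Bax*, and *Tnfrsf10b* are p53 targets as well. *Bbc3* lost its call without *Hint1*-/- replicate 1 (0.0502) or *Hint1*-/- replicate 4 (0.0570), each an edgeR adjusted p.

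**Figure D4:**
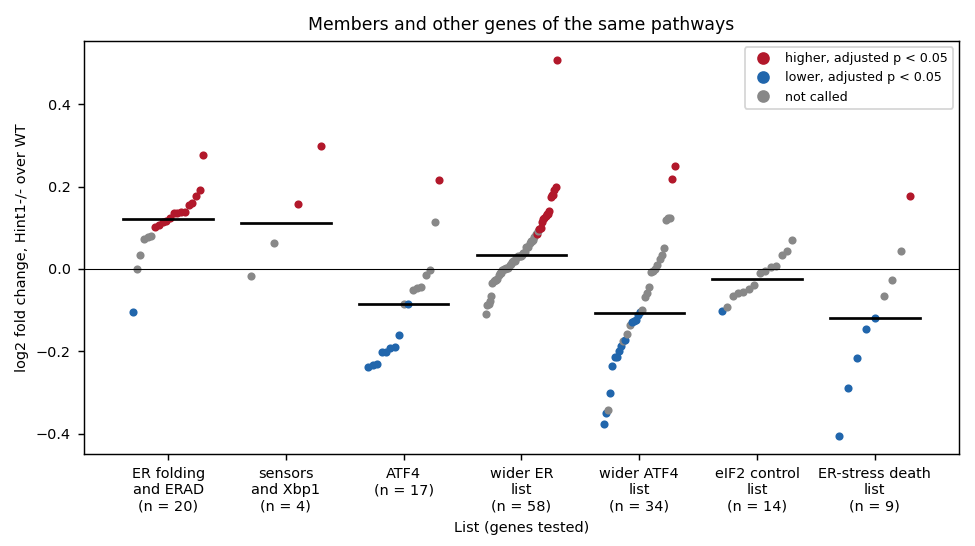
Each point is the log2 fold change of *Hint1*-/- over WT of 1 tested gene, in the 3 groups of members and the 4 lists of other pathway genes. Black lines are medians and colors mark calls at an edgeR adjusted p under 0.05. The medians lie at 0.120 for the ER folding and ERAD genes, 0.033 for the wider ER list, -0.086 for the ATF4 genes, and -0.108 for the wider ATF4 list.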

How the data were processed

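RNA-Seq was analysed for 4 WT and 4 *Hint1*-/- MASMC samples, grouped by the genotype in the sample titles. The authors sequenced short reads on a BGISEQ-500 and deposited 1 file of estimated counts per sample, per gene symbol, without normalization. The methods name Hisat2 and mm10, the submitters' processing notes name Bowtie2 and RSEM 1.3.1, and the gene annotation is not given in the sources used here. A read that fits several places is divided among them, so 13 of the 42 members have a count that is not whole (by more than 0.005) in at least 1 file.

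Counts were rounded, filtered with filterByExpr, normalized by TMM, and tested between the genotypes across 13535 genes with edgeR 4.0.16 (glmQLFit, glmQLFTest, two-sided, Benjamini-Hochberg over all genes) in R 4.3.3. Log2 CPM used a prior count of 2. A standard error is the log2 fold change divided by the square root of F. Data were simulated with 13455 genes, and 200 of the more abundant ones differed 1.2-fold. Of the 200, 94% were recovered with 10 false calls, and a draw with no difference gave 1 call. Most called members differed by less than 1.2-fold, and recovery of smaller differences was not simulated. Total counts ran from 20778077 to 20888041 per sample, and the standard errors also carry the spread between samples.

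Alternatives were DESeq2 size factors and upper-quartile factors in edgeR, no filter, a minimum of 10 counts in each library, a replicate block, DESeq2 1.42.0, limma-voom (limma 3.58.1), each sample left out, and, added after the data were seen, removal of each library's loess trend (span 0.3) over gene length and GC content from GENCODE M21. The members and lists were chosen with earlier results of these data known. The genes given with a value in every sample were the members called, *Hspa5*, *Ddit3*, *Xbp1*, *Atf4*, and *Hint1*. From each other list up to 5 called genes with the largest change were named by fold change and adjusted p, and sample values were added for *Ero1a* and *Slc7a11* after they were seen. Promoters were shown as stretches of up to 40 bases on each side of the matches.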

Additional observations from a re-analysis of the deposited data

Results flagged for a closer look

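Of the 84 sets of 4 values (each tested member and *Hint1* in each genotype, in log2 CPM), 3 held an isolated value. *Pdia4* was low in WT replicate 4, at 5062 counts where the remaining WT samples ran from 5416 to 5482, and this distance made up 0.882 of the spread of the set. *Atf4* was low in *Hint1*-/- replicate 4, at 6616 counts below values of 6992 to 7041 (0.937 of the spread). *Trib3* was high in WT replicate 4, at 673 counts above values of 650 to 653 (0.905 of the spread). About 1 set in 20 is marked by chance, which would be 4.2 here.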

How the results depend on the processing

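Under 16 alternatives, between 20 and 28 members were called, against 27. Calls among all genes also varied, from 2258 without *Hint1*-/- replicate 4 to 3124 with the length and GC trends removed, against 2907. With each sample left out in turn the range for the members was 20 to 26. The 20 came without WT replicate 3, where 2306 of all 13619 tested genes were called. No called member changed direction, and 16 of the 27, 10 higher and 6 lower, kept their calls throughout. The other 11 lost it under at least 1 alternative, as given beside each, and 7 of them only when a sample was left out. The number past a 1.5-fold change stayed at 0. The median log2 fold change ran from 0.108 to 0.141 for the ER folding and ERAD genes and from -0.126 to -0.076 for the ATF4 genes. With each sample left out, the count of called genes ranged from 9 to 15 for the wider ER list (main value 16) and from 0 to 1 for the eIF2 list, and the latter was 2 with the length and GC trends removed. Differences near 0 changed sign, all far from any call. With 1 sample left out, log2 fold changes went as low as -0.022 for *Derl1*, -0.041 for *Atf6*, and -0.023 for both *Atf4* and *Shmt2*. *Derl1* went up to 0.011, reaching 0.002, 0.010, 0.009, 0.000, and 0.011 on the other side of 0. *Shmt2* reached 0.010, 0.012, and 0.002, *Atf6* 0.007, and *Atf4* 0.007. With the trends removed, *Derl1* was at 0.000, *Atf4* at 0.012, and *Shmt2* at 0.016. The median over all genes was furthest from 0 at -0.0106, with upper-quartile factors. With the replicate number as a block (replicate block), 26 members were called, 17 higher and 9 lower, *Psat1* losing its call (edgeR adjusted p = 0.0602), and 3082 of all genes were called against 2907. Deviations of samples with the same number correlated at 0.154, 0.411, 0.0436, and 0.160 for replicates 1, 2, 3, and 4. Only samples numbered 3 correlated better with another number. WT replicate 3 reached 0.151 with *Hint1*-/- replicate 1, and *Hint1*-/- replicate 3 reached 0.159 with WT replicate 4. The sample titles do not say what the numbers mean. Whether they mark a shared batch was not settled, and the main fit left them out.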
